A study of Mus musculus with 16 samples.

Results

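Deletion of Bcl11b was examined through open chromatin in early T helper 2 (Th2) cells, with 2 knockout (KO) and 2 wild-type (WT) DNase-seq libraries among the 16 libraries of the series. The 4 libraries were those whose titles name the DNase assay, the early stage and one of the 2 genotypes. All cells came from Bcl11b fl/fl-CreERT2 mice on the C57BL/6 background, in which a Cre recombinase fused to a modified oestrogen receptor cuts the floxed gene once 4-hydroxytamoxifen (4-OHT) is added. CD4 T cells were cultured under Th2 conditions for 4 days with 4-OHT (KO) or without it (WT). The WT cells therefore carry the same floxed alleles and the same Cre, and loss of the gene and exposure to 4-OHT cannot be told apart. The cells are labelled as naive although the stated sort took cells high in CD44, a marker of activation. The labels do not say whether replicates came from separate animals or cultures, so the replicate spread behind each test may be technical.

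Other libraries of the series are set beside the early DNase lists. Early H3K27ac ChIP-seq was made from cells of the same 2 groups, and late DNase-seq from cells first cultured for 4 days under Th2 conditions, then rested with IL-2 for 1 day and cultured for another 4 days under Th2 conditions, with 4-OHT given to the KO cells in that second culture only. Each of these groups also had 2 libraries. H3K27ac, acetylation of histone H3 at lysine 27, marks active promoters and enhancers.

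Bcl11b is a zinc finger transcription factor that T-cell precursors switch on as they commit to the T lineage, and mature T cells keep it. Th2 cells make the cytokines IL-4, IL-5 and IL-13 under the control of GATA3, whereas Th1 cells make interferon-γ under the control of T-bet, the product of Tbx21, often together with Runx3. DNase I cuts DNA where nucleosomes are displaced, so stretches rich in cuts mark promoters, enhancers and other regulatory elements that are open in a cell.

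Each file lists islands enriched for DNase cuts, placed on mm9, with a score for each island and no read counts, so the sequencing depth is unknown and an absent island means only that the list does not hold it. The lists differed in length. WT-1 held 37525 islands over 46.3 Mb, WT-2 held 39736 over 66.8 Mb, KO-1 held 24286 over 31.3 Mb and KO-2 held 37956 over 49.3 Mb. KO-1 was thus the shortest list and WT-2 the one that covered most, while KO-2 and WT-1 were alike in both measures. The KO lists covered 40.3 ± 12.7 Mb on average and the WT lists 56.6 ± 14.5 Mb (SD, n = 2 each), a difference within the spread of the replicates (exact permutation test, two-sided p = 0.667; 2 against 2 cannot give less than 0.333). Regions and gene windows were compared on the whole lists and on lists cut by score to the same length, 24286 islands, at which KO averaged 34.0 Mb and WT 42.9 Mb. Score ranks were compared on those equal lists alone. A further version cut each list to the same covered length, 31.3 Mb.

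Genotype was not the only source of difference between the lists. Taking the windows of 200 bp that at least 1 list of a pair covered, the whole lists of WT-1 and WT-2 shared 53.9% and KO-1 and KO-2 shared 45.7%. Between genotypes, WT-1 and KO-2 shared 51.9%, WT-2 and KO-2 49.1%, WT-1 and KO-1 44.4%, and WT-2 and KO-1 37.5%. At equal list length the replicates shared 56.5% in WT and 52.7% in KO, and the pairs of unlike genotype shared 43.9% to 53.8%. The WT-1 and KO-2 lists thus overlapped more than the KO replicates did, under both versions.

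Chromatin open in KO alone was often acetylated in KO alone. Islands of the 4 lists were merged into 45847 regions, of which 20959 held an island of every list. A region found in both KO and neither WT list occurred 918 times, and one found in both WT and neither KO list 4327 times. Of the 918 KO-only regions, 315 (34.3%, 95% Wilson interval 31.3% to 37.4%) carried H3K27ac islands in both early KO libraries and in no early WT library, against 3003 (6.55%) of all regions. The converse pattern, H3K27ac in both WT and neither KO, was present at 1 of the 918. Intervals here and below cover only the number of regions, and neighbouring regions are not independent.

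Per library, an H3K27ac island lay at 69.6% and 60.6% of the KO-only regions in KO-1 and KO-2, and at 23.5% and 23.0% in WT-1 and WT-2. The genotypes did not overlap. Over all 45847 regions the shares were 67.5% and 64.0% in KO and 57.2% and 59.4% in WT. The share acetylated in KO alone was 32.2% of the 1723 KO-only regions at equal list length and 26.6% of the 2272 at equal covered length, where all regions gave 6.69% and 6.76%. Without KO-1 it was 20.4% of 4556 regions, against 6.56% of all, and without any one of the other lists it was 30.4% to 33.1%. With lists of equal length H3K27ac islands lay at 77.4% and 70.5% of the KO-only regions in KO and at 34.1% and 35.6% in WT, again without overlap. No test across samples was made on these shares.

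At chromatin open in WT alone, the H3K27ac shares of the genotypes overlapped in the whole lists and in lists of equal length, but not at equal covered length. Of the 4327 WT-only regions, an H3K27ac island lay at 40.1% and 43.6% in the WT libraries and at 41.1% and 37.3% in the KO libraries. H3K27ac in both WT and neither KO was present at 220 (5.08%, 95% Wilson interval 4.47% to 5.78%), against 1.33% of all regions. H3K27ac in KO alone was present at 2.57%, against 6.55% of all regions. Without KO-2, H3K27ac in WT alone lay at 2.92% of the 12205 WT-only regions and in KO alone at 4.37%, so KO alone was then the larger. All regions gave 1.41% and 5.70% in that version. WT alone thus stayed above the share of all regions, and KO alone below it. Lists of equal length gave an H3K27ac island at 62.0% and 67.4% of the WT-only regions in WT and at 66.6% and 59.9% in KO. At equal covered length, where 84 such regions were left, the shares were 92.9% in both WT libraries and 85.7% and 82.1% in KO.

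The late cells, whose DNase libraries took no part in the choice of regions, showed a split by genotype at KO-only regions of the whole early lists that was turned round at equal covered length. A late DNase island lay at 34.1% and 31.5% of the KO-only early regions in late KO-1 and KO-2, and at 10.9% and 20.5% in late WT-1 and WT-2. At WT-only early regions the order was the other way, with 2.63% and 2.40% in late KO and 23.2% and 52.5% in late WT. Late DNase in both KO and neither WT library was seen at 150 of the 918 KO-only regions (16.3%, 95% Wilson interval 14.1% to 18.9%), against 0.654% of all regions. At WT-only regions this pattern occurred at 0 of 4327 (Wilson upper bound 0.0887%).

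Late lists differ in length as well. Late KO lists held 18812 and 17397 islands, and late WT lists 27416 and 36963, and over all regions a late island was found at 38.6% and 36.0% in KO and at 56.5% and 71.7% in WT. Late DNase in both WT and neither KO was present at 18.1% of the WT-only regions and 16.5% of all regions. With the early lists at equal length these shares were 46.2% and 19.3%. For KO-only regions at equal length, late DNase in KO alone was present at 10%, against 0.802% of all regions, and late DNase in WT alone at 8.65%. The libraries taken one by one then overlapped, with a late island at 41.8% and 37.1% of these regions in KO and at 31.5% and 49.6% in WT. At equal covered length, late DNase in KO alone was present at 6.73% of the KO-only regions, against 0.868% of all regions, and late DNase in WT alone at 14.9%, against 17% of all. A late island then lay at 51.2% and 45.5% of them in KO and at 54.4% and 71.2% in WT. Over all regions of that version the order was the same, with 64.4% and 60.5% in KO and 83.2% and 91.1% in WT. Without KO-1, late DNase in KO alone was present at 5.2% of the KO-only regions of the whole lists, against 0.650% of all.

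**Figure D1:**
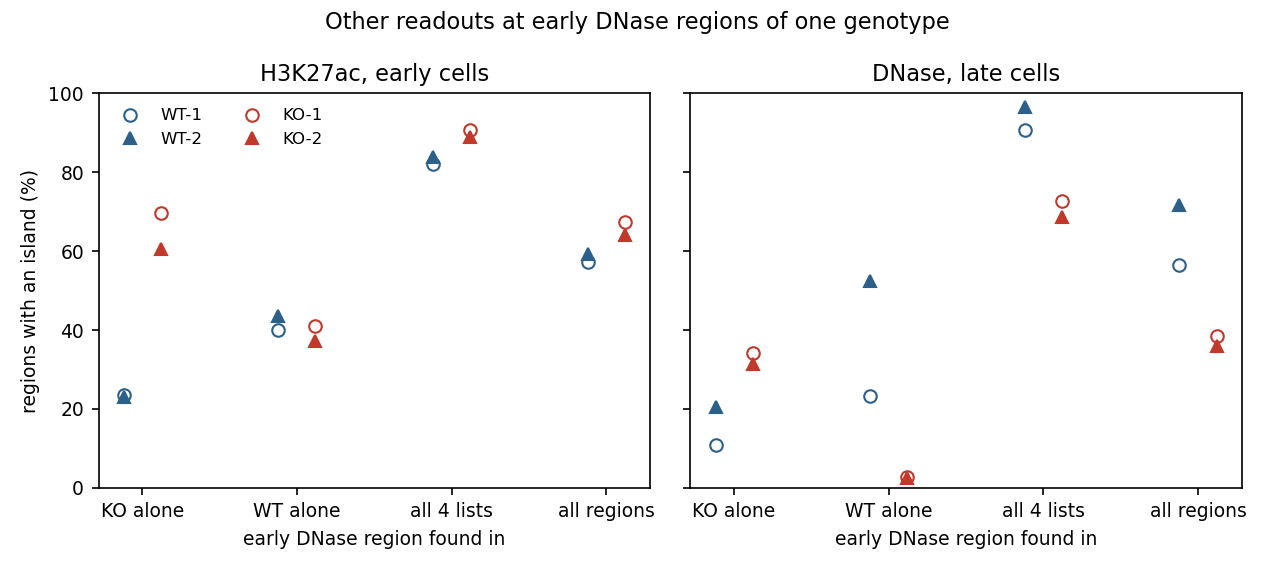
Share of early DNase regions, in percent, that hold an H3K27ac island in early cells (left) or a DNase island in late cells (right), for regions found in KO alone, in WT alone, in all 4 lists or in any (whole lists). Each symbol is 1 library, blue for WT and red for KO; at KO-only regions H3K27ac lies at 60.6% and 69.6% in KO and near 23% in WT, while at WT-only regions the genotypes overlap for H3K27ac and lie apart for late DNase.

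How many regions belonged to each genotype depended on how the lists were treated. Lists of equal length gave 1723 KO-only and 1802 WT-only regions out of 29938. At equal covered length the counts were 2272 and 84, of 25461. The upper 50% of each list gave 437 and 2110. Leaving out KO-1, the shortest list, gave 4556 regions in the remaining KO list alone and 4541 in WT alone. The excess of WT-only regions in the whole lists was therefore not present at equal list length, and it was turned round at equal covered length. Without KO-1, a KO-only region needed an island of KO-2 alone, while a WT-only region still needed both WT lists. In the whole lists 3602 regions held an island of KO-2 and of no other list. The counts without KO-1 thus cannot show whether the excess remained.

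**Figure D2:**
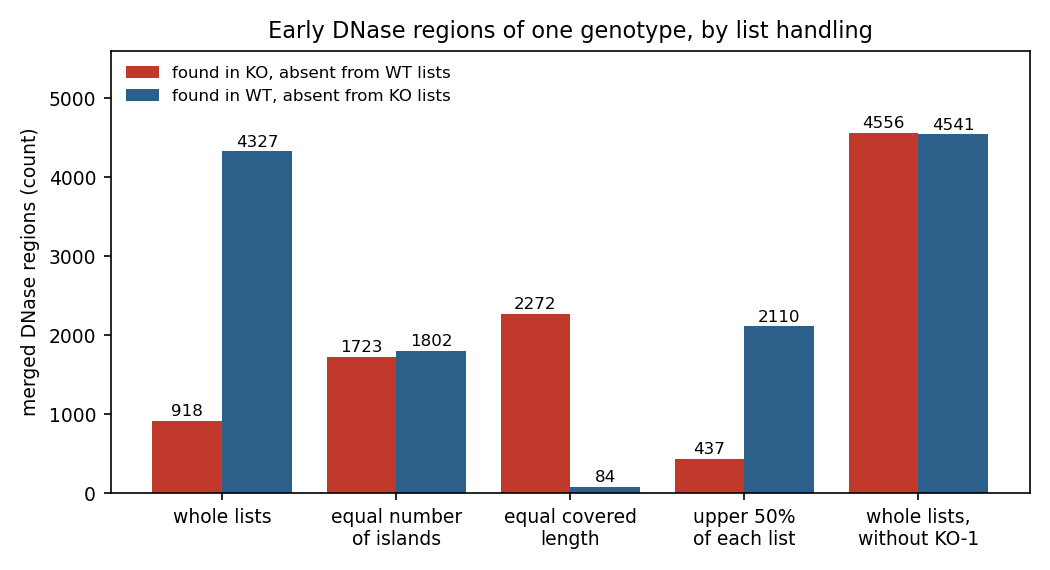
Number of merged early DNase regions found in the KO lists and absent from the WT lists (red), and found in the WT lists and absent from the KO lists (blue), under 5 treatments of the lists. Whole lists give 918 against 4327, equal numbers of islands 1723 against 1802, and equal covered length 2272 against 84.

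KO-only regions also ranked high within their lists in some places. Among regions found in KO alone by both whole and equal-length lists (569), the median island stood at percentile 27.8 of the score within its list, and the 5 highest stood between 80.7 and 89.9. The first lay on chromosome 17 at 15243801 to 15245800, at percentiles 86.3 in KO-1 and 93.5 in KO-2. H3K27ac covered 1.0 kb of it in early KO-1 and none in the 3 other early libraries.

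The next, on chromosome 19 at 55213201 to 55214800 (mean percentile 89.4), was acetylated over all 1.6 kb in both KO libraries and nowhere in WT. Late cells of both genotypes had DNase islands there, 1.2 and 1.4 kb in WT and 1.4 and 1.0 kb in KO. On chromosome 11 at 45618601 to 45619600 and on chromosome 19 at 25110801 to 25111800 both KO libraries and no WT library had H3K27ac over the whole 1.0 kb. At both places late DNase islands were present in both KO lists, 0.8 and 1.0 kb at the former and 0.8 and 0.6 kb at the latter, and in neither WT list. Within 20 kb of the chromosome 19 site H3K27ac covered 24.0 and 23.8 kb in KO and 6.6 and 7.6 kb in WT. The fifth region, on chromosome 14 at 71348601 to 71350600, was likewise acetylated over its full 2.0 kb in KO alone, with late DNase islands in all 4 late lists.

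The 384 regions found in WT alone by both versions had a median percentile of 14.3. The highest, on chromosome 11 at 109619001 to 109621000 (mean percentile 60.4), was acetylated over 2.0 kb in all 4 early H3K27ac libraries and open over 2.0 kb in both late WT libraries, with no late KO island. A region on chromosome 9 at 80431201 to 80433000 (percentile 56.0) was the one of these 5 that carried H3K27ac in WT alone, 1.8 kb in both WT libraries. The region on chromosome 5 at 107326001 to 107328400 had H3K27ac over 2.4 kb in all 4 libraries. The other two, on chromosome 13 at 23783401 to 23784200 and on chromosome 5 at 42152601 to 42156800, had none. None of these 10 regions lay within 200 kb of a gene of the lists described below.

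Chromosome X held 4 of the 918 KO-only regions (0.436%) and 103 of the 4327 WT-only regions (2.38%), where all regions gave 1.87%. At equal list length the counts were 13 of 1723 (0.754%) and 39 of 1802 (2.16%). Islands on X made up 1.85% and 1.92% of the WT lists and 1.49% and 1.69% of the KO lists. Whether the sex of the animals differed between libraries was not tested.

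Among the 17637 regions found in all 4 lists of equal length, the order of scores shifted at some. Both KO islands stood above both WT islands in percentile at 4072 regions (23.1%), and below them at 5583 (31.7%). A gap of over 20 percentile points was seen at 603 and 491 regions. The widest gap towards KO lay on chromosome 1 at 133022201 to 133024000, at percentiles 9.77 and 10.3 in WT and 87.1 and 85.9 in KO. Its nearest listed gene was Il10, the gene of an anti-inflammatory cytokine, about 90 kb away by an approximate placement, and H3K27ac covered 1.8 and 1.6 kb of the region in KO and none in WT.

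The second lay on chromosome 12 at 108990401 to 108992400, at percentiles 5.0 and 14.6 in WT and 88.5 and 90.8 in KO. Its nearest listed gene was Bcl11b itself, about 160 kb away. In the other direction, the fifth widest gap lay on chromosome 2 at 9608801 to 9612400, about 160 kb from Gata3, at percentiles 80.0 and 79.1 in WT and 23.1 and 30.2 in KO. H3K27ac covered 3.6 kb of that region in all 4 early libraries. These regions were picked as the widest gaps, and their values are a description.

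A fit of the kb covered in each 10-kb bin of the genome, over the 8 DNase libraries of both stages, called few bins. Of 37586 bins, 203 (0.540%) were higher and 259 (0.689%) lower in early KO (limma, Benjamini-Hochberg adjusted p under 0.05), and 4648 had an unadjusted p under 0.05. In 199 of the bins that rose neither WT list held an island, and in 248 of those that fell neither KO list did. The p-value of such a bin rests on the spread of the other groups. Of these bins, 167 of the 203 (82.3%) and 223 of the 259 (86.1%) had no island in any library outside the group where they were high, so they passed the filter through that group alone and their counts support no difference. H3K27ac covered on average 0.738 kb of a rising bin in WT and 1.78 kb in KO, and 1.75 and 1.38 kb of a falling bin. Over all tested bins it covered more, 2.42 kb in WT and 2.55 kb in KO. With all 8 lists cut to the length of the shortest late list, 17397 islands, 650 (2.87%) and 551 (2.44%) of 22613 bins were called, of which 44 and 6 were among those above. No bin was called with a pseudocount of 2 kb, with no filter on bins, with the 4 early libraries alone, with the replicate number as a block or with any 1 of the 8 libraries left out.

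The bin with the largest rise, on chromosome 7 at 71220001 to 71230000, had 0 and 0 kb in WT and 7.6 and 7.2 kb in KO (limma adjusted p = 0.0467). The next, on chromosome 17 at 3020001 to 3030000, had 0 and 0 kb in WT and 3.2 and 8.6 kb in KO. Both had islands in late KO (3.0 and 9.0 kb in the former, 5.4 and 5.8 kb in the latter) and none in late WT.

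Of the others, the bin on chromosome 12 at 20230001 to 20240000 had 2.6 and 6.6 kb in KO. The 2 bins on chromosome 4 at 146770001 to 146780000 and 146790001 to 146800000 had 3.6 and 4.8 kb and 5.8 and 3.0 kb in KO. None of these 3 had an early WT island. In late cells the chromosome 12 bin had none in WT and 4.0 and 7.2 kb in KO. Both chromosome 4 bins held islands in late WT, 1.4 and 2.4 kb in the first and 4.6 and 5.2 kb in the second. Late KO had 2.8 and 3.4 kb and 6.0 and 5.4 kb at these 2 bins. None of the 5 rising bins held an H3K27ac island in any early library, unlike many KO-only regions. Whether these bins lie in repeated sequence was not tested.

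The bin with the largest fall, on chromosome 11 at 95000001 to 95010000, had 5.6 and 4.0 kb in WT and 0 and 0 kb in KO. The bin on chromosome 6 at 83660001 to 83670000 had 6.8 and 9.4 kb in WT and 0 and 1.2 kb in KO, while H3K27ac covered 6.8 and 8.2 kb in WT and 6.4 and 4.8 kb in KO. The bins on chromosome 15 at 11830001 to 11840000 and chromosome 3 at 96210001 to 96220000 and 51460001 to 51470000 had 1.8 to 5.0 kb in WT and none in KO. All 5 had islands in both late WT lists and none in late KO. The test of a difference between the early and the late KO change did not pass at any of these 10 bins (limma interaction, adjusted p 0.109 to 0.979).

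Genes of helper and T-cell function were then read through a window around each gene. The windows rest on approximate mm9 positions, since no mm9 annotation was used, and neighbouring genes share sequence (95 genes in 79 separate loci). They are wide enough that an island can belong to another gene, and those of Gata3, Pparg, Klrg1 and other genes named under the processing are less surely placed. All 8 T-cell markers (Cd3e, Cd3d, Cd3g, Cd4, Cd5, Cd6, Lck and Thy1) had islands in every early list, from 65.8 to 127 kb summed, while Ms4a1, a B-cell marker, and the window of Cd8a had none in any.

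Of the 95 genes, 91 had islands in at least 2 early lists. Both WT lists covered more than both KO lists at 37 of them, and both KO lists covered more at 2. These are 40.7% and 2.20% of the covered genes, beside 33.1% and 4.20% of all covered 60-kb tiles of the genome. Among the 41 genes with a mean of at least 10 kb covered, WT lay above KO at 15 and KO above WT at 0, where tiles as densely covered gave 44.4% and 0.775%. The median ratio of KO to WT coverage was 0.705 over the listed genes and 0.706 over the tiles. At equal list length WT lay above KO at 34 genes (37.4%) and KO above WT at 5 (5.49%), where tiles gave 29.4% and 9.25%. At equal covered length the counts were 26 and 15 of 87 covered genes (29.9% and 17.2%), where tiles gave 16.9% and 17.9%. The share with WT above KO was thus higher among the listed genes than among the tiles, most so at equal covered length, and lower among the densely covered. The difference between genes and tiles was not tested, and nothing particular to the lists is read from it. No gene was tested on its own outside the bin fit.

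At the targeted gene Bcl11b, islands covered 31.2 and 46.8 kb in WT and 17.2 and 33.6 kb in KO, so that WT-1 lay between the KO values. H3K27ac covered 95 and 91.2 kb in WT and 102.8 and 102.6 kb in KO. The lists cannot show the deletion itself, and the floxed exon was not placed.

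Among Th2 genes, Gata3, Il4 and Il13 had more open chromatin in WT. Of the 20 Th2 genes, 6 (30.0%, beside 33.1% of tiles) lay higher in WT in the whole lists, none in KO, and 14 overlapped. In lists of equal length 10 (50%, beside 29.4% of tiles) lay higher in WT and none in KO. Equal covered length gave 8 and 3 of 19 (42.1% and 15.8%, beside 16.9% and 17.9% of tiles). At Gata3 islands covered 17 and 28.6 kb in WT and 10 and 16.2 kb in KO. At Il4 they covered 19.4 and 23.6 kb in WT and 12.8 and 18.6 kb in KO. At Il13, which neighbours Il4 and shares islands with it, the values were 16.8 and 20 kb in WT and 11.2 and 15.6 kb in KO.

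The genotypes did not overlap at these 3 genes in any of the 3 versions of the lists. In a narrower window on the whole lists they overlapped at Gata3, with means of 19.4 kb in WT and 11.6 kb in KO. H3K27ac at Gata3 was alike in both genotypes, 32.0 and 36.2 kb in WT and 36.2 and 35.0 kb in KO, whereas at Il4 it covered 54.6 and 54.0 kb in WT and 46.0 and 49.8 kb in KO. A region near Il4 on chromosome 11 at 53400801 to 53402400 held DNase islands in WT alone, 0.4 and 1.6 kb, and was acetylated over 1.6 kb in all 4 early libraries. One near Gata3 on chromosome 2 at 9815001 to 9817200 held 1.4 and 2.2 kb in WT and none in KO, with no H3K27ac in either.

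Il5, the gene of an eosinophil growth factor, had 5.6 and 11.0 kb in WT and 3.4 and 5.8 kb in KO, which overlapped in the whole lists and at equal covered length and did not at equal list length. Il10 had 19.2 and 27.4 kb in WT and 11.2 and 17.6 kb in KO, while its H3K27ac lay higher in KO, 50 and 46.8 kb against 43.6 and 44.8 kb. Pparg, a nuclear receptor, had 5.8 and 9.0 kb in WT and 2.8 and 4.4 kb in KO, and H3K27ac of 37.0 and 32.2 kb in WT and 38.8 kb in both KO libraries. Bhlhe41, a transcriptional repressor, lay higher in WT in the whole lists, 6.6 and 8.4 kb against 2.2 and 5.0 kb, and higher in KO at equal covered length. The other Th2 genes that overlapped included Stat6, the transcription factor downstream of the IL-4 receptor, at 12.2 and 17 kb in WT and 14.8 and 12.2 kb in KO.

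Tbx21 was the one Th1 gene whose window held a called bin, and open chromatin there was reduced in KO. Islands covered 10.2 and 16 kb in WT, 0.6 kb in KO-1 and 7.4 kb in KO-2. Its bin on chromosome 11 at 96980001 to 96990000 fell, with 5.0 and 5.8 kb in WT and 0.6 and 0.8 kb in KO (log2 change -2.05, SE 0.36, limma adjusted p = 0.0490). This bin passed in 1 of 16 alternative fits. Over the same window H3K27ac covered 6.8 and 9.4 kb in WT and 12.6 and 11.6 kb in KO, so that acetylated length was higher in KO where open length was lower. In late cells the window held 9.0 and 8.6 kb in WT and 5.6 and 2.4 kb in KO.

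The promoter of Tbx21 is shown because this locus carried the called bin, beside the promoters of Csf2 and Il3, the genes at which KO lay above WT. Each is the 250 bases before the start site from RefSeq on GRCm38.p6, written 5′ to 3′ on the strand of the gene, which is the minus strand for all 3. These coordinates are not those of the islands, which are on mm9, and the promoters were not placed within the islands. Capitals mark matches, on either strand, to short motifs of 3 families of factors. The letters searched were GATAA for GATA factors. For RUNX factors they were TGTGGT. For NFAT factors they were TGGAAA.

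Tbx21 (chr11:97115332-97115581): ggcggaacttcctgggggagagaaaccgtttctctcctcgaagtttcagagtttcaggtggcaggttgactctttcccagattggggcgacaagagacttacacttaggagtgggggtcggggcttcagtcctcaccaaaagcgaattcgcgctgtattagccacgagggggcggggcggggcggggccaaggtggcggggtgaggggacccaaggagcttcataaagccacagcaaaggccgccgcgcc
Csf2 (chr11:54249900-54250149): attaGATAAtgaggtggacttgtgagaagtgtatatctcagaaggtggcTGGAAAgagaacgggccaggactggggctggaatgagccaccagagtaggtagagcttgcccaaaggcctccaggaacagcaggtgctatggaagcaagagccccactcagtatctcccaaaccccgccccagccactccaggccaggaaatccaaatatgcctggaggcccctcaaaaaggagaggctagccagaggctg
Il3 (chr11:54267280-54267529): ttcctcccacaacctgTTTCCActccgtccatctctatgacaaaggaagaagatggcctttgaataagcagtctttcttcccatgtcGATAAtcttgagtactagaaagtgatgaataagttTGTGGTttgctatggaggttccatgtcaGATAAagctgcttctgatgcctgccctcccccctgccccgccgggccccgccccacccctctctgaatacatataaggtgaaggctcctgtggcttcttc

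Csf2 held 1 GATA and 1 NFAT match. Il3 held 2 GATA, 1 RUNX and 1 NFAT match, and no match overlapped another. None of the 3 motifs occurred in the Tbx21 window. Of 32851 promoters of the same length, 22.6% held the GATA motif, 14% the RUNX motif and 18.6% the NFAT motif. A match is only a run of letters and does not show that a factor binds.

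Of the 24 genes of the Th1 and cytotoxic list, 23 were covered in the whole lists. WT lay above KO at 11 (47.8%, beside 33.1% of tiles), KO above WT at none (beside 4.20% of tiles), and 12 overlapped. In lists of equal length the counts were 7 (30.4%, beside 29.4% of tiles), 1 (4.35%, beside 9.25%) and 15. At equal covered length they were 4 (17.4%, beside 16.9% of tiles), 5 (21.7%, beside 17.9%) and 14. Il15ra, the gene of the IL-15 receptor α chain, had 11.6 and 31.4 kb in WT and 1.8 and 6.0 kb in KO, with H3K27ac of 19.4 and 21.6 kb in WT and 27.4 and 29.0 kb in KO. Il15ra lies beside Il2ra on chromosome 2. Il12rb1, a chain of the IL-12 receptor, had 16.6 and 22.2 kb in WT and 11.0 and 11.4 kb in KO, and its H3K27ac was also lower in KO, 23.8 and 25.2 kb against 25.8 and 30.2 kb.

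Ifng, the gene of interferon-γ, held little open chromatin in any list, 2.6 and 2.4 kb in WT and 1.2 and 2.0 kb in KO. The order at Ifng was not kept, since the genotypes overlapped at equal list length and KO lay above WT at equal covered length. Eomes, a T-box factor of cytotoxic cells, had 4.6 and 9.4 kb in WT and 2.4 and 4.0 kb in KO and also lay higher in KO at equal covered length. Prf1, the gene of perforin, had at most 1.0 kb in any list. Il12rb2, Irf1 and Ccl4 also had more in WT in the whole lists, with KO minus WT means from -3.7 to -0.6 kb. The genotypes overlapped at Irf1 at equal list length, and at Il12rb2, Irf1 and Ccl4 at equal covered length.

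Runx3, which acts with T-bet in Th1 and cytotoxic cells, had 11.0 and 16.2 kb in WT and 8.6 and 14.6 kb in KO, which overlapped. Within its window the genotypes differed by place. A region on chromosome 4 at 134670201 to 134671600 held 1.4 and 0.8 kb in KO and none in WT, and one at 134734001 to 134737200 held 1.4 and 2.8 kb in WT and none in KO. H3K27ac covered the former over 1.4 kb in all 4 libraries. Over the whole Runx3 window H3K27ac covered less in KO, 39.0 and 31.4 kb against 48.2 and 47.2 kb.

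Klrg1, an inhibitory receptor of cytotoxic and effector cells, had alike DNase coverage in both genotypes, 3.2 and 2.8 kb in WT and 2.6 and 4.0 kb in KO. Its H3K27ac covered 2.0 kb in both WT libraries and 22.8 and 27.8 kb in KO. This was the widest KO excess of H3K27ac among the listed genes, and no DNase excess stood beside it.

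Of the 30 T-lineage genes, 29 were covered. WT lay above KO at 11, KO above WT at none and 18 overlapped, both in the whole lists and at equal list length. The 11 are 37.9%, beside 33.1% of tiles in the whole lists and 29.4% at equal list length. At equal covered length WT lay above KO at 12 (41.4%, beside 16.9% of tiles). KO then lay above WT at 4 (13.8%, beside 17.9%), which were Cd3e, Cd6, Tcf7 and Nfatc1. Cd28, the co-stimulatory receptor, had 18.8 and 27 kb in WT and 10.6 and 15 kb in KO. A called bin in its window, on chromosome 1 at 60770001 to 60780000, had 1.4 and 2.8 kb in WT and none in KO or in any late library. It passed the filter through early WT alone, and the placement of Cd28 is less sure than that of most genes. The neighbours Ctla4 and Icos, which share this uncertainty, had 7.8 and 13.4 kb and 8.0 and 11.4 kb in WT, and 5.2 and 6.8 kb and 2.8 and 7.8 kb in KO.

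Satb1, a chromatin organiser of T cells, had 2 called bins. The bin on chromosome 17 at 51950001 to 51960000 fell, with 5.4 and 7.8 kb in WT and 1.0 and 1.6 kb in KO (log2 change -1.73, SE 0.22, limma adjusted p = 0.0467), and 7.2 kb in both late WT libraries and 1.6 and 2.2 kb in late KO. It too passed in 1 of 16 alternative fits. The bin at 51860001 to 51870000 had none in WT and 1.4 and 1.2 kb in KO, and it passed the filter through early KO alone. The region inside it, at 51864201 to 51865600, was acetylated over 1.4 kb in both KO libraries and not in WT, and no late list held an island there. These bins and those of Tbx21 and Cd28 were the only ones called of 434 tested in the windows, 1 higher (0.230%) and 3 lower (0.691%), beside 0.540% and 0.689% over all bins, and the shares are given as a description.

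Zap70, a kinase downstream of the T-cell receptor, had 8.4 and 13.8 kb in WT and 4.2 and 6.0 kb in KO, Cd2 had 19.4 and 23.6 kb against 9.4 and 17.6 kb, and Thy1 13 and 14.8 kb against 6.0 and 8.6 kb. Zbtb7b, the regulator of the CD4 lineage also called ThPOK, had 15 and 16 kb in WT and 6.0 and 13 kb in KO. In these 4 genes WT lay above KO in all 3 versions of the lists, and the H3K27ac values of the genotypes overlapped at Cd2 and Zbtb7b and were lower in KO at Zap70 and Thy1.

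Cd4 had 16 and 18.8 kb in WT and 7.4 and 15.8 kb in KO, and at equal list length the genotypes overlapped. A region near it on chromosome 6 at 124859201 to 124863600 held 3.0 and 4.4 kb of islands in WT and none in KO, with H3K27ac over all 4.4 kb in every early library. Tcf7, the gene of TCF-1, a factor of naive and memory T cells, had 13.2 and 20.4 kb in WT and 13 and 18.8 kb in KO. Cd5, an inhibitory receptor of T cells, had 9.6 and 15.4 kb in WT and 5.0 and 9.2 kb in KO, and Ccr7, a homing receptor, had 17.6 and 18.8 kb against 16.8 and 15.2 kb. The genotypes overlapped at equal list length for both. Cd3e, a chain of the T-cell receptor complex, had 10.6 and 16.4 kb in WT and 14 and 12.6 kb in KO. The genotypes overlapped at Tcf7 and Cd3e in the whole lists. H3K27ac differed in opposite ways at these 2, 23.2 and 25.4 kb in WT against 31.2 kb in both KO libraries at Tcf7, and 26.0 and 23.2 kb in WT against 17.4 and 17 kb at Cd3e.

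**Figure D3:**
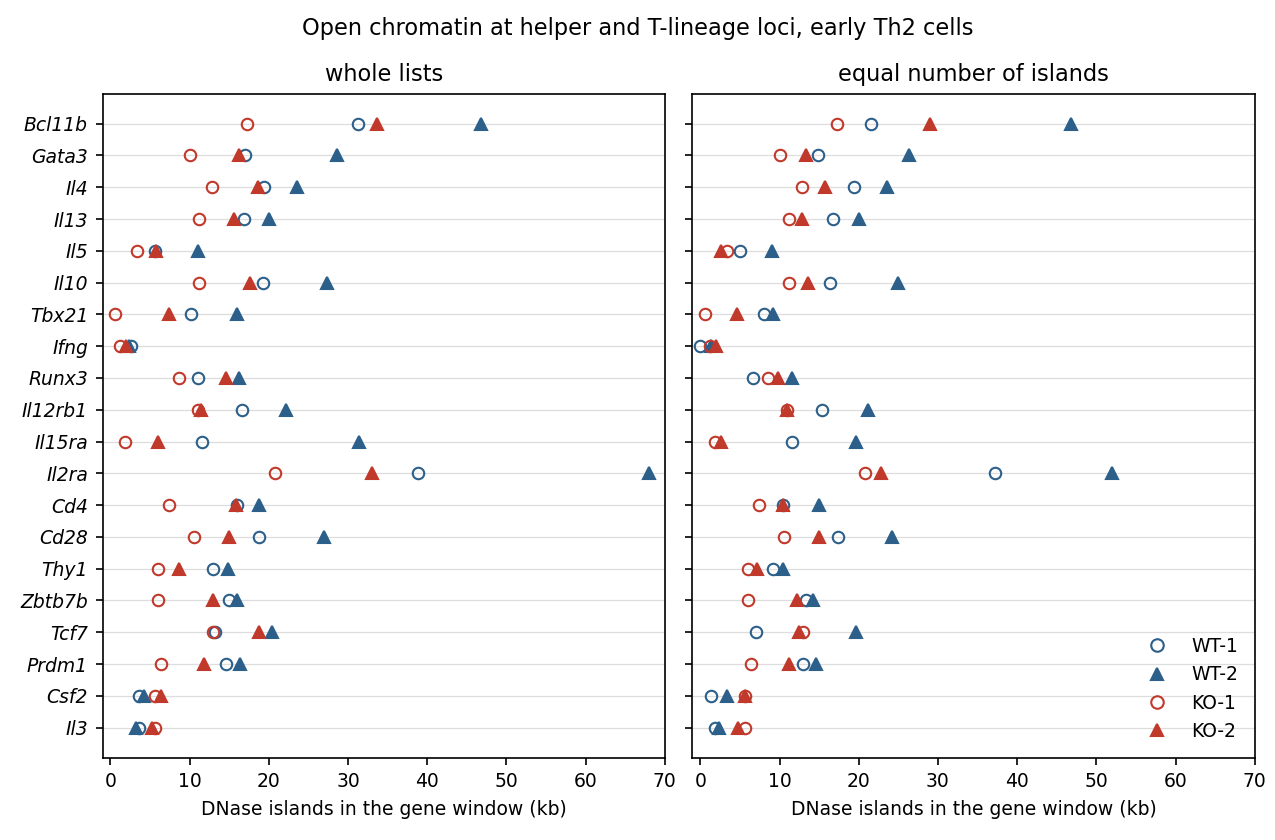
Length of DNase islands, in kb, in the window of 20 genes in each early library, from whole lists (left) and from lists of equal numbers of islands (right). Blue symbols are WT and red are KO, open circles replicate 1 and filled triangles replicate 2; WT lies to the right of KO at Gata3, Il4, Il13, Tbx21, Il15ra and Il2ra in both panels, and KO to the right of WT at Csf2 and Il3.

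The 13 genes of other helper fates held both genes with more open chromatin in KO, beside 6 with more in WT and 5 that overlapped. In the whole lists 15.4% thus lay higher in KO and 46.2% in WT, beside 4.20% and 33.1% of tiles. Lists of equal length gave 3 (23.1%, beside 9.25% of tiles), 4 (30.8%, beside 29.4%) and 6. Equal covered length gave 3 (25.0%, beside 17.9% of tiles), 2 (16.7%, beside 16.9%) and 7. Csf2, the gene of the cytokine GM-CSF, had 3.6 and 4.2 kb in WT and 5.6 and 6.4 kb in KO, and its neighbour Il3 had 3.6 and 3.2 kb in WT and 5.6 and 5.2 kb in KO. The windows of the 2 genes overlap, so they count as 1 locus. H3K27ac at Csf2 covered 0 and 0 kb in WT and 5.8 and 6.2 kb in KO. KO lay above WT at both in all 3 versions of the lists, but with a window 2 times as wide WT lay above KO.

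At equal list length 2 regions of this locus were found in KO alone, on chromosome 11 at 54062201 to 54065400 and 54069801 to 54071000. In the whole lists WT islands covered 0.6 kb of the first in both libraries and KO islands 1.0 and 3.2 kb, and H3K27ac covered 1.4 kb of it in both KO libraries and none in WT. The locus was open at these places in both genotypes, over less length in WT. In late cells the Csf2 window held 0.6 and 5.6 kb in WT and 1.6 and 0.6 kb in KO, which overlapped.

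Il2ra, the gene of the IL-2 receptor α chain CD25, had the widest difference of all listed genes, 38.8 and 68.0 kb in WT and 20.8 and 33.0 kb in KO. H3K27ac there covered 76.8 and 76.0 kb in WT and 83.4 and 86.6 kb in KO. Prdm1, the gene of the repressor Blimp-1, had 14.6 and 16.4 kb in WT and 6.4 and 11.8 kb in KO, and overlapped at equal covered length. Bcl6, the regulator of follicular helper cells, had 9.2 kb in both WT lists and 6.8 and 7.8 kb in KO. Il2 had 3.2 and 3.0 kb in WT and 1.0 and 0.4 kb in KO, and no WT island was left there at equal list length. Il21, a cytokine of follicular helper cells, had 7.8 and 9.4 kb in WT and 4.2 and 7.4 kb in KO, and Il23r, a chain of the IL-23 receptor, 3.0 kb in both WT lists and 1.0 and 1.4 kb in KO. Foxp3, the regulator of regulatory T cells, had 7.6 and 8.8 kb in WT and 6.8 and 9.0 kb in KO, which overlapped.

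The 7 innate lymphoid and NK-cell genes held little open chromatin. Their islands summed to 25.4 and 38.4 kb in WT and 17 and 23.2 kb in KO. In the whole lists WT lay above KO at Zbtb16, Klrb1c and Gzma, 3 of the 5 covered genes, beside 33.1% of tiles. KO lay above WT at none (beside 4.20% of tiles), and Ncr1 had no island in any list. This order was not kept. At equal list length WT lay above KO at 2 of 5 (Zbtb16 and Gzma), beside 29.4% of tiles. KO then lay above WT at 1 (Klrd1), beside 9.25% of tiles, and Klrb1c overlapped. The 3 genes still covered at equal covered length all overlapped. Zbtb16, the gene of the innate-like T-cell factor PLZF, had 3.6 and 4.8 kb in WT and 1.4 and 1.6 kb in KO. At equal covered length it had 0 and 0 kb in WT and 1.4 and 0 kb in KO. Among myeloid markers, Csf1r had no island in WT and 1.8 and 1.0 kb in KO, in a window whose placement was not checked against the islands, while Lyz2 had 1.2 kb in KO-2 and none in the other lists. Cebpa, a myeloid transcription factor, had 2.6 and 3.0 kb in WT and 1.2 and 4.2 kb in KO, with no H3K27ac in WT and 9.6 and 10.4 kb in KO. The other two lay higher in WT, Itgam at 4.6 and 5.6 kb in WT and 2.6 and 4.0 kb in KO, and Spi1 at 4.2 and 6.4 kb against 2.0 and 3.0 kb. At equal list length Csf1r and Cebpa lay higher in KO (Cebpa 0 and 0 kb in WT, 1.2 and 3.6 kb in KO), Spi1 lay higher in WT and Itgam overlapped. At equal covered length Csf1r, Itgam and Cebpa lay higher in KO, 75.0% of the 4 covered markers beside 17.9% of tiles, and Spi1 overlapped. Summed over the 5 myeloid markers, islands of the whole lists covered 11.4 and 15 kb in WT and 7.60 and 13.4 kb in KO. At equal list length the sums were 6.00 and 11.2 kb in WT and 7.60 and 11.6 kb in KO. The part of such cells in the results was not tested.

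Genes with more open chromatin in WT differed among themselves in H3K27ac. At the 34 genes with more open chromatin in WT at equal list length, H3K27ac was higher in KO at 13, higher in WT at 7, overlapping at 13 and without islands at 1. These are 39.4% and 21.2% of the 33 with H3K27ac islands, beside 54.4% and 15.8% of the other 57 genes covered by both marks, and an association of the marks was not tested. Over all 95 genes H3K27ac was higher in KO at 45 and higher in WT at 16, where covered tiles gave 33.7% and 22.2%. The 5 genes with more open chromatin in KO at equal length are among those 57. H3K27ac was higher in KO at 3 of them (Csf2, Il3 and Prf1), higher in WT at 1 and overlapping at 1, beside the 54.4% above. Csf2 and Il3 are 1 locus, and Prf1 held at most 0.6 kb of KO islands, so nothing is read from this count. The H3K27ac lists of the 2 genotypes covered nearly the same length in all, 107 and 103 Mb in WT and 105 and 108 Mb in KO, unlike the DNase lists.

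**Figure D4:**
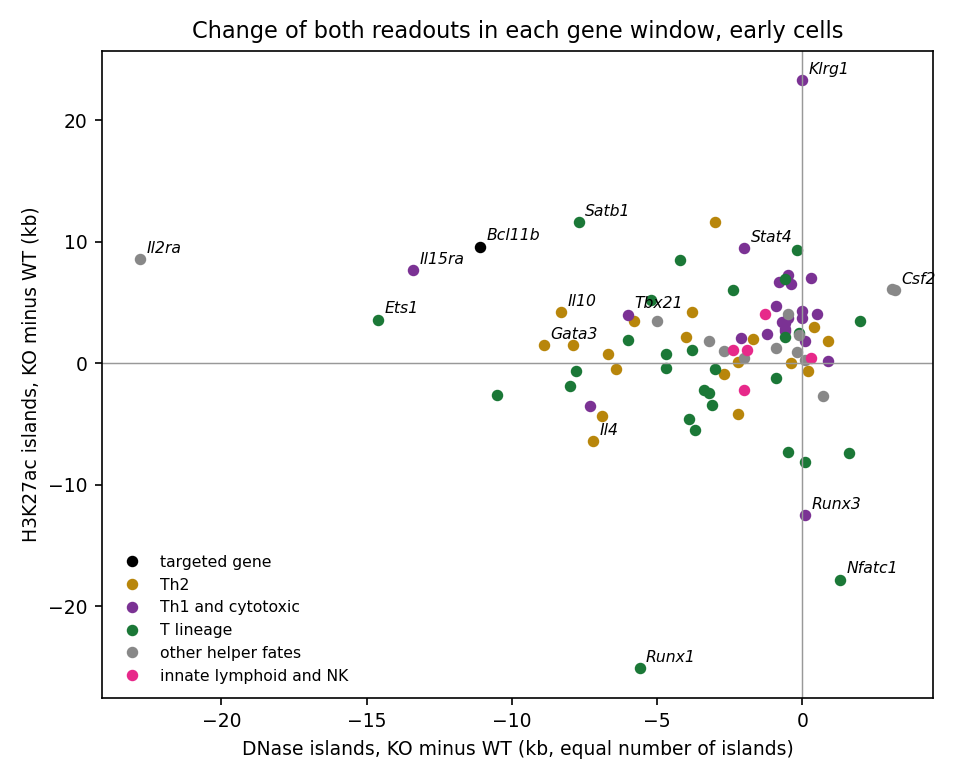
Difference between KO and WT means in the window of each listed gene, DNase islands at equal list length on the horizontal axis and H3K27ac islands on the vertical axis, both in kb. Each point is 1 gene coloured by list; Il2ra and Il15ra lie at the upper left, with less open and more acetylated length in KO, Klrg1 at the top with no DNase difference, Runx1 at the bottom, and Csf2 with its neighbour Il3 at the right.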

How the data were processed

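Early DNase-seq was compared between 2 KO and 2 WT libraries, grouped by their labels. The authors processed reads with CASAVA 2.18, Bowtie2 and SICER 1.1 on mm9, per the submitters' processing notes. The deposited lists give each island's position and a score, used here only to rank or cut islands within a list. Read numbers and control libraries are not given in the sources used here, so depth is unknown.

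Islands that overlapped or touched were merged into regions, from whole lists and from lists cut by score to equal number (24286) or equal covered length (31.3 Mb). For 10-kb bins covered in at least 2 of 8 DNase libraries, log2(kb + 0.5) was centred on the median and fitted in 4 groups with limma 3.58.1 (lmFit, then eBayes with trend = TRUE), called at a Benjamini-Hochberg adjusted p under 0.05. Totals were compared by exact permutation.

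Annotation of mm9 was not used here, so bins replaced the planned fit on gene loci. Gene windows extend 20 kb beyond mm9 positions recalled by hand after the files were seen. All 109 genes lay on the chromosome of RefSeq's GRCm38.p6 table, and 0 of 89 neighbouring pairs were out of order. Positions are approximate. A rough check against the islands, not used in any result, left Cd2, Cd28, Ccr7, Ctla4, Ets1, Fli1, Gata3, Icos, Il18rap, Il1rl1, Il2rb, Klrd1, Klrg1, Klrk1, Lef1, Maf, Nfil3, Nkg7, Pparg, Prdm1, Stat4 and Tox unsure and could not be made for Csf1r and Nfatc1.

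Genes were named if KO and WT did not overlap, if they held a called bin, or if they were Bcl11b, Gata3, Il4, Il13, Il5, Tbx21, Ifng, Runx3, Cd4 or Tcf7, and regions and bins as the 5 highest per direction. Klrg1, Stat6, Cd3e, Foxp3, Cebpa, Lyz2, Runx1, the shifted ranks and regions within gene windows were chosen after their values were seen. Some genes counted in the lists are not reported here by name. Members and lists were chosen with earlier results of these data known. Alternatives varied the lists, overlap, merging, centring, pseudocount, filter, replicate block, windows and libraries.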

Additional observations from a re-analysis of the deposited data

How the results depend on the processing

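Cutting the 4 early lists to equal length gave 1723 KO-only and 1802 WT-only regions in place of 918 and 4327, equal covered length gave 2272 and 84, and the upper 50% of each list gave 437 and 2110. Without 1 library the KO-only count ranged from 1075 (without WT-1) to 4556 (without KO-1), and the WT-only count from 4541 (without KO-1) to 12205 (without KO-2). The genotype that lost a list then needed an island in its remaining list alone, so its count could rise for that reason. With the remaining lists also cut to equal length, a choice made after seeing the data, the counts were 2035 and 2966 without WT-1, 2333 and 2819 without WT-2, 4735 and 4234 without KO-1, and 3235 and 3242 without KO-2. Requiring 50% of a region to be covered, merging within 1 kb and leaving out chromosome X kept both counts within 1.5 times. The difference in covered length stayed below 0 in every version except equal covered length, where it is fixed near 0 (0.00150 Mb).

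Bins called higher and lower in early KO numbered 650 and 551 at equal list length, 278 and 845 for the upper 50% of each list, 383 and 1521 without centring, and 9 and 0 after quantile normalization. Of the 203 and 259 bins called in the first place, 44 and 6 were called again at equal list length and 15 and 8 in the upper 50%. There were 0 and 0 calls with a pseudocount of 2 kb, without a filter on bins, with the 4 early libraries alone, and with any 1 of the 8 libraries left out (0 in each), with 2441 to 6120 bins at an unadjusted p under 0.05. With the replicate block there were also 0 and 0 calls; same-numbered early WT and KO libraries deviated from their group means with a correlation of 0.043, so the numbers were not taken as pairs. The causes were not tested.

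Of the genes whose genotypes did not overlap, the order turned round at Csf2 and Il3 with a window 2 times as wide (KO minus WT -1.60 and -3.00 kb), at Il2 (0.700 kb) and Prf1 (0.50 kb) at equal list length, at Prf1 also with the wider window (0.800 kb), and at Bhlhe41 (1.90 kb), Eomes (2.20 kb), Ifng (0.900 kb) and Prf1 (0.50 kb) at equal covered length. WT lay above KO in all 3 versions of the lists at 18 genes. Of the 37 genes with WT above KO in the whole lists, 27 kept that order in a narrower window and 30 in one 2 times as wide. Island length is capped by the window, and unknown depth limits every absence of an island.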
